A study of Mus musculus with 5 samples.

Results

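The 3 embryonic globin genes Hba-x, Hbb-y and Hbb-bh1 were followed together with 6 genes of primitive red cells, Gata1, Klf1, Alas2, Tal1, Lyl1 and Hemgn, in RNA from dissected mouse neural tubes. These 9 genes, of 23284 in the count tables, were chosen by symbol as a readout of the blood cells that were carried into the dissection. All 9 were found, and all 9 passed the filter on low values, which kept 12703 genes with a CPM (reads per 1000000 reads counted on genes) above 1 in at least 2 samples. The choice used no measured value as a criterion, but it was made with earlier results of these data known.

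In all, 5 neural tube samples labelled embryonic day 8.5 were sequenced as polyA RNA: 2 wild type (EpoR +/+), 1 heterozygote (EpoR +/-) and 2 EpoR-null (EpoR -/-). EpoR is the receptor for erythropoietin, the hormone that sustains red cell precursors, and the embryos came from matings of heterozygous mice, in which the wild type and heterozygous littermates served together as the controls. The study's methods give a slightly later stage than the labels, and the labels do not say whether a sample was 1 embryo or several, so the p-values below measure the spread between these samples. The mutation was not restricted to the neural tube, so the blood cells of the EpoR-null embryos carried the same genotype.

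Primitive red cells are the first blood cells of the embryo. They arise in the blood islands of the yolk sac beside endothelial cells, enter the circulation while still nucleated, and carry embryonic haemoglobin made of zeta chains (Hba-x) and of beta-type chains (Hbb-y, the epsilon y chain, and Hbb-bh1, the beta h1 chain), of which Hbb-bh1 is expressed earlier and Hbb-y more as the cells mature. Gata1, Klf1, Tal1 and Lyl1 encode transcription factors of the blood lineages, Alas2 encodes the red cell enzyme that starts haem synthesis, and Hemgn encodes a nuclear protein of blood cell precursors.

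Short stretches of the promoters of these genes are shown because Gata1, which binds GATA words, and Klf1, which binds CACCC boxes, are themselves members of the set. RefSeq promoters on GRCm38.p6 were matched by symbol for 8 of the 9 genes, with 9 promoters in all, and the 250 bases before each start were searched. The GATA word was the letters GATA with A or T before them and A or G after them, on both strands. The other words were CACCC on both strands, CCAAT on both strands and, as a TATA-like word on the strand of the gene, ATAAA with T or C before it. Each line gives 30 bases in the direction of the gene, with the matched word in capitals. A word on the opposite strand reads as its reverse complement, as in TTATCA for TGATAA.

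Hba-x, GATA word 108 bases before the start, chr11:32276480-32276509, plus strand: tgttgctggctcTGATAAcaggctccaccc
Hba-x, CACCC 95 bases before the start, chr11:32276493-32276522, plus strand: gataacaggctcCACCCtgcaagccccctc
Hbb-y, GATA word 162 bases before the start, chr7:103853352-103853381, minus strand: atctaatgtgcaTTATCAtaaacacagtgt
Hbb-y, CACCC 111 bases before the start, chr7:103853301-103853330, minus strand: atgacctggctcCACCCatgaggaccacgg
Hbb-y, CCAAT 83 bases before the start, chr7:103853273-103853302, minus strand: gggtcaggctgaCCAATagcttcaaagaat
Klf1, GATA word 80 bases before the start, chr8:84901890-84901919, plus strand: tttgcctgggtcTTATCAgggaagacagcc
Alas2, GATA word 86 bases before the start, chrX:150547319-150547348, plus strand: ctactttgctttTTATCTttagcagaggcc
Tal1, GATA word 205 bases before the start, chr4:115056209-115056238, plus strand: ctatagagtcttTTATCTttgagcaattcc
Hemgn, GATA word 13 bases before the start, chr4:46404184-46404213, minus strand: ctcacacctgtgcagtgTGATAAagaaagt

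A GATA word stood in 6 of the 9 member promoters, beside 26.5% of the 32851 mouse promoters searched. CACCC stood in 7 of 9, beside 52% of all promoters, CCAAT in 2 of 9, beside 33.8%, and a TATA-like word in 3 of 9, beside 12.8%. The 2 shown stretches of Hba-x overlap each other. Both of them, and the shown stretch of Hemgn, lie inside the gene as GENCODE draws it. GENCODE starts these genes earlier than the RefSeq starts used here. The Gata1 and Lyl1 promoters held no GATA word and 2 and 4 CACCC words. These matches describe the letters alone.

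On GRCm38, the build of the annotation used for positions, Hbb-y (chr7:103851749-103853216) and Hbb-bh1 (chr7:103841637-103843164) lie near each other on the minus strand in the beta-globin cluster. Hba-x (chr11:32276400-32278116, plus strand) lies in the alpha-globin cluster. The other members are Gata1 (chrX:7959260-7978071), Alas2 (chrX:150547375-150570638), Klf1 (chr8:84901928-84905291), Lyl1 (chr8:84701457-84704715), Tal1 (chr4:115056426-115071755) and Hemgn (chr4:46393989-46413506). Each was measured as the reads assigned to the whole gene. The files themselves were counted on mm9, per the submitters' processing notes, and genes were joined by symbol.

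The depth was 19316126 to 41169218 reads on genes per sample, so 3 reads were worth 0.0729 to 0.155 CPM. Epor, the targeted gene (chr9:21958897-21963506, minus strand), stood at 2.35 and 1.62 CPM in the wild type samples, 0.475 in the heterozygote, with 0.353 and 0.668 in the EpoR-null samples. The heterozygote thus lay between the EpoR-null samples, and not between the genotypes on either side of it by label. The reads left in the EpoR-null samples numbered 7 and 19, and which exons were deleted is not given in the sources used here. The log2 fold change of Epor was -1.51 (SE 0.76, FDR 0.280) against the 3 controls and -1.91 (SE 0.58, FDR 0.0528) against the wild type samples alone, by the exact test of edgeR, so it missed the threshold in both.

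The neural tube label held in every sample. The summed level of 10 neural tube genes was 1898 and 1909 CPM in the wild type samples, 2125 in the heterozygote, with 1874 and 1642 in the EpoR-null samples. Sox2, a factor of neural progenitors, ranged from 219.7 to 308.9 CPM, and Nes, their intermediate filament, from 367.6 to 776.3. The heterozygote library stood apart in its blood and vessel genes, as the next paragraphs show, so every comparison of genotypes is given with and without it.

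The embryonic globins were abundant in 4 of the 5 libraries and scarce in the heterozygote. Summed over the 3 genes, their level was 1070 CPM in wild type 1, 590 in wild type 2, 42.9 in the heterozygote, 1669 in EpoR-null 1 and 951 in EpoR-null 2. As a share of the reads on genes this was 0.109% (95% Wilson interval 0.107 to 0.110), 0.0602% (0.0595 to 0.0610), 0.00431% (0.00405 to 0.00459), 0.171% (0.170 to 0.173) and 0.0890% (0.0879 to 0.0900). These intervals cover counting error only, and the libraries of 1 genotype differed by far more than that. The EpoR-null and wild type ranges overlapped, since wild type 1 lay between the EpoR-null samples, although each EpoR-null sample was higher than the wild type sample that bears the same number.

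Hba-x, the embryonic alpha-type chain, stood at 367 and 227 CPM in the wild type samples, 14.5 in the heterozygote, with 536 and 343 in the EpoR-null samples. Hbb-y stood at 424 and 211 CPM in the wild type samples, 15.8 in the heterozygote, with 800 and 387 in the EpoR-null samples. Hbb-bh1 stood at 279 and 152 CPM in the wild type samples, 12.6 in the heterozygote, with 333 and 221 in the EpoR-null samples. For each globin, EpoR-null 1 was the highest library, the heterozygote by far the lowest, and EpoR-null 2 fell between the wild type samples.

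The transcription factors were expressed at a few CPM and were low in the same library. Gata1, the zinc-finger factor that red cell formation depends on, stood at 1.73 and 1.0 CPM in the wild type samples, 0.0864 in the heterozygote, with 2.37 and 1.30 in the EpoR-null samples, from 42, 42, 2, 47 and 37 reads in that order. Klf1, an activator of globin and red cell membrane genes, stood at 1.94 and 1.26 CPM in the wild type samples, 0.346 in the heterozygote, with 2.07 and 1.93 in the EpoR-null samples. In both genes the genotypes overlapped.

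Tal1, a basic helix-loop-helix factor of blood and vessel precursors, stood at 6.93 and 7.07 CPM in the wild type samples, 1.25 in the heterozygote, with 11.6 and 4.54 in the EpoR-null samples. Lyl1, its close relative, stood at 1.53 and 2.50 CPM in the wild type samples, 0.259 in the heterozygote, with 1.87 and 1.62 in the EpoR-null samples. For Tal1 the EpoR-null samples lay on either side of the wild type pair, and for Lyl1 they lay within it.

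Alas2 stood at 12.6 and 7.59 CPM in the wild type samples, 0.605 in the heterozygote, with 12.5 and 7.74 in the EpoR-null samples, so the EpoR-null values lay almost on the wild type ones. Hemgn stood at 3.63 and 2.07 CPM in the wild type samples, 0.302 in the heterozygote, with 6.0 and 2.78 in the EpoR-null samples. Of the 9 genes, 0 had both EpoR-null samples on the same side of all 3 controls, where 43.3% of all tested genes did.

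**Figure D1:**
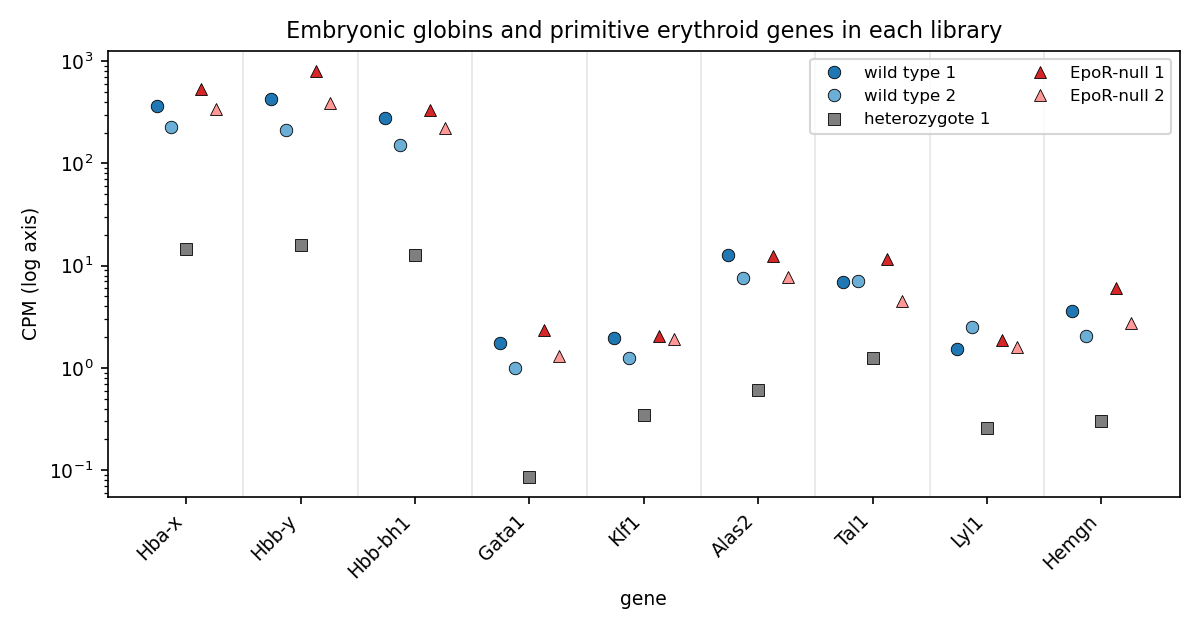
Level of each of the 9 genes in each library, as CPM on a log axis, with circles for wild type, squares for the heterozygote and triangles for EpoR-null samples. The heterozygote is the lowest library for all 9 genes, and the EpoR-null and wild type points overlap for all 9.

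Per kilobase of transcript, the embryonic globins were far above the other members in every library. The lowest globin stood at 18.1 CPM per kilobase in the heterozygote and at 249 to 544 in the other libraries, whereas the highest of the other 6 members stood at 0.297 and at 3.73 to 6.20. Hbb-y was the highest on this scale in all 5 libraries, at 670 and 333 in the wild type samples, 24.9 in the heterozygote, with 1264 and 612 in the EpoR-null samples. Hba-x followed at 458 and 283, 18.1, and 669 and 428, and Hbb-bh1 at 454 and 249, 20.6, and 544 and 360, so that Hbb-bh1 passed Hba-x in the heterozygote alone. Between the wild type samples the ranges of the 3 globins overlapped, but within each of the 2 the order was Hbb-y, Hba-x, Hbb-bh1. In wild type 1, Hba-x and Hbb-bh1 were close, at 458 and 454. The order was not tested.

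Alas2 came next, at 6.20 and 3.73 CPM per kilobase in the wild type samples and 6.14 and 3.8 in the EpoR-null samples. It lay above Tal1, the next gene in the wild type samples, at 1.65 and 1.68 there, whereas both stood at 0.297 in the heterozygote. Hemgn, Klf1, Gata1 and Lyl1 ranged from 0.526 to 1.54 in the wild type samples and overlapped one another.

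EpoR-null samples were set against the 3 littermate controls to ask whether the loss of the receptor changed these genes at a stage when primitive blood circulates. By the exact test of edgeR, 0 of the 9 members passed both thresholds (p below 0.001 and a Benjamini-Hochberg FDR below 0.05), where 606 of 12703 genes (4.77%) did, 488 of them lower and 118 higher in the EpoR-null samples. None of the 9 had an unadjusted p under 0.05. Without the heterozygote, again 0 of 9 passed, where 253 of 12628 genes (2.0%) did. In the quasi-likelihood test of edgeR the count was also 0 of 9. In DESeq2 it was 0 as well, but Gata1, Klf1, Lyl1 and Hemgn were given no FDR there and could not pass. The quasi-likelihood test, which left the replicate numbers out, called 0 of all 12703 genes too, with 3052 at an unadjusted p under 0.05.

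Among the globins, the log2 fold change, EpoR-null minus the 3 controls, was 1.45 for Hbb-y (SE 1.09, FDR 0.480, exact test of edgeR), 1.12 for Hba-x (SE 1.06, FDR 0.595) and 0.91 for Hbb-bh1 (SE 1.03, FDR 0.662). Against the wild type samples alone, the log2 fold change was 0.90 for Hbb-y (SE 0.50, FDR 0.476), 0.56 for Hba-x (SE 0.35, FDR 0.553) and 0.36 for Hbb-bh1 (SE 0.38, FDR 0.782). The heterozygote therefore set a large part of the difference and most of its error. The 95% intervals of the second set ran from -0.07 to 1.88 for Hbb-y, from -0.12 to 1.25 for Hba-x and from -0.38 to 1.11 for Hbb-bh1, on the log2 scale, so a rise of 2-fold was within each of them.

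The mean summed globin level was 1310 ± 508 CPM (SD, n = 2) in the EpoR-null samples and 568 ± 514 (SD, n = 3) in the controls, a ratio of 2.31. Without the heterozygote the wild type mean was 830 ± 339 (SD, n = 2) and the ratio 1.58. Within replicate number 2 the ratio of EpoR-null to control was 1.61, at 951 against 590 CPM. Within number 1 the ratio was 3.0, because the heterozygote at 42.9 CPM was averaged into the control. EpoR-null 1 stood there at 1669 CPM against 1070 in wild type 1. The replicate numbers are not stated to pair samples. The difference between the groups was of the size of the spread within each.

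Of the other members, Hemgn had a log2 fold change of 1.13 (SE 0.93, FDR 0.533, exact test of edgeR) against the 3 controls and 0.62 (SE 0.60, FDR 0.769) against the wild type samples. Gata1 had 0.96 (SE 0.98, FDR 0.631) and 0.43 (SE 0.58, FDR 0.856), and Klf1 0.75 (SE 0.70, FDR 0.587) and 0.33 (SE 0.48, FDR 0.865). The fold changes of Tal1 were 0.66 (SE 0.81, FDR 0.691) and 0.20 (SE 0.55, FDR 0.939), and those of Alas2 0.54 (SE 1.03, FDR 0.811) and 0.002 (SE 0.45, FDR 1). Lyl1 turned from 0.27 (SE 0.84, FDR 0.889) to -0.22 (SE 0.50, FDR 0.929).

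The median log2 fold change of all tested genes was 0.06 against the 3 controls and 0.05 against the wild type samples. That of the 3 embryonic globins was 1.12 and 0.56, and that of the other 6 members 0.71 and 0.27. In whole tissue, a different number of red cells and a different amount of RNA per red cell cannot be told apart.

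**Figure D2:**
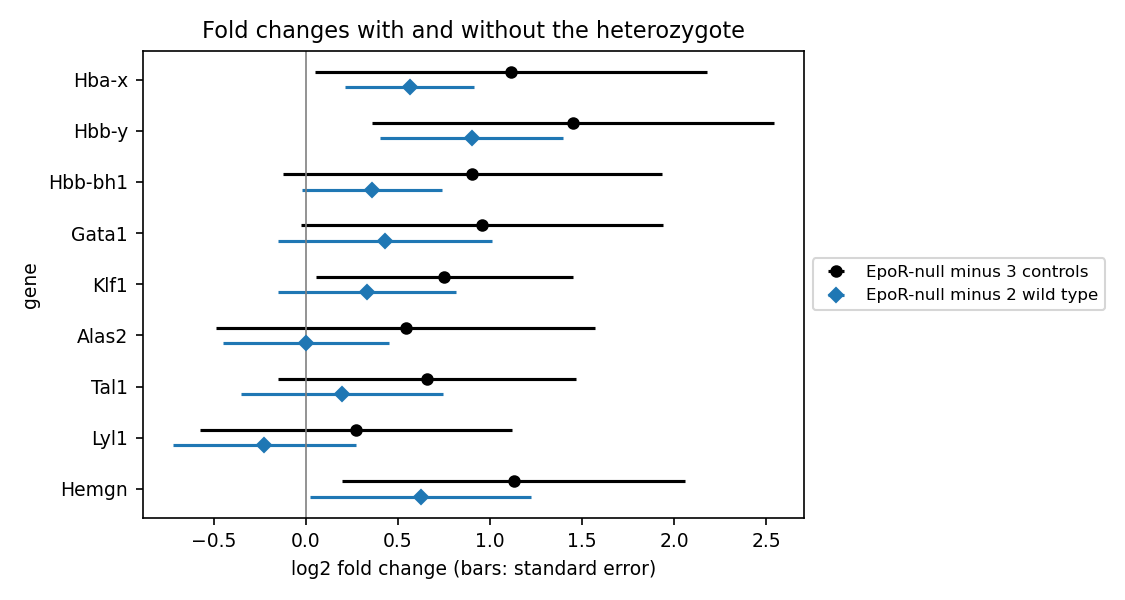
Log2 fold change of each gene, with its standard error as a bar, in EpoR-null samples against the 3 controls (black circles) and against the 2 wild type samples (blue diamonds). Leaving the heterozygote out moves all 9 values down and shortens every bar, and Lyl1 changes sign.

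All 9 members were low in the heterozygote. Each stood at or below 0.25 times the wild type mean, where 2.2% of all tested genes (279 of 12703) did and the median gene stood at 1.01 times it. There was 1 heterozygote, so this compares 1 library with 2 and carries no test, and the intervals that follow are exact counting intervals of the heterozygote against the pooled wild type reads. The summed globins were 17.9-fold lower (95% interval 16.8 to 19.0). Hba-x was 19.2-fold lower (17.2 to 21.5), Hbb-y 18.3-fold (16.5 to 20.4) and Hbb-bh1 15.8-fold (14.0 to 17.7).

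Alas2 was 15.6-fold lower (9.23 to 28.7) and Gata1 14.7-fold (3.94 to 123, from 2 reads), and both intervals hold the value of the globins. Hemgn was 8.74-fold lower (4.15 to 22.0) and Lyl1 8.27-fold (3.71 to 22.9), and their intervals hold it as well. Tal1 was 5.60-fold lower (3.85 to 8.46) and Klf1 4.37-fold (2.13 to 10.4), and these intervals end below the globins' lower bound. Tal1 is also known from endothelial cells, whose listed genes were 11.9-fold lower as a sum in the heterozygote. Why Tal1 and Klf1 were less low than the globins was not tested.

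Lists of genes of other cell types showed which of them were low together with the red cell genes in the heterozygote. Endothelial genes were. The summed level of 15 was 275 and 441 CPM in the wild type samples, 30.1 in the heterozygote, with 392 and 258 in the EpoR-null samples, and 13 of the 14 tested stood at or below 0.25 times the wild type mean in the heterozygote. Cdh5, the cadherin of endothelial junctions, stood at 42.1 and 76.8 CPM in the wild type samples, 1.64 in the heterozygote, with 56.1 and 33.0 in the EpoR-null samples. Kdr, the main VEGF receptor of endothelium, stood at 60.1 and 85.8, 6.13, and 62.6 and 30.2.

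The endothelial and globin sums did not order the other 4 libraries alike. Wild type 2 had the highest endothelial sum and the lowest globin sum of the 4. In the test of EpoR-null samples against controls, 0 of the 14 endothelial genes passed, with a median log2 fold change of 0.52, or -0.03 without the heterozygote. The part of the vessel and blood content of each library in the comparison of genotypes was not tested.

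The summed level of 9 megakaryocyte and platelet genes was 8.38 and 7.38 CPM in the wild type samples, 2.07 in the heterozygote, with 27.9 and 5.38 in the EpoR-null samples. EpoR-null 1 was thus the highest library here, as it was for the globins, Gata1, Klf1, Tal1 and Hemgn, but not for Alas2 and Lyl1. Itga2b, the platelet integrin chain, reached 6.81 CPM in EpoR-null 1 against 0.605 to 2.39 in the other 4 libraries, and Vwf, made by endothelium and megakaryocytes, reached 6.46 against 0.216 to 4.02. Of the 3 tested genes of that list, 0 passed.

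Macrophage and yolk sac genes other than Cd68 were at low levels in every library. The 12 macrophage and leukocyte genes summed to 5.65 and 6.40 CPM in the wild type samples, 5.74 in the heterozygote, with 8.83 and 8.48 in the EpoR-null samples, and 1 of them passed the filter on low values. Csf1r, the growth factor receptor that defines macrophages, stood at 0.309 to 0.958 CPM, and Cd68, a lysosomal protein, at 4.19 to 7.60. Without Cd68 the other 11 summed to 1.44 and 0.833 CPM in the wild type samples, 0.648 in the heterozygote, with 4.64 and 0.880 in the EpoR-null samples, and 6 of the 11 had 0 reads in the heterozygote. These rest on 15 to 92 reads a library, so a difference of the heterozygote in macrophage genes cannot be read from them. The 8 yolk sac endoderm genes summed to 1.92 to 2.92 CPM over the 5 libraries, and 0 passed the filter. Rbp4 and Cubn, the leading genes of that list, reached at most 1.37 and 0.743 CPM.

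**Figure D3:**
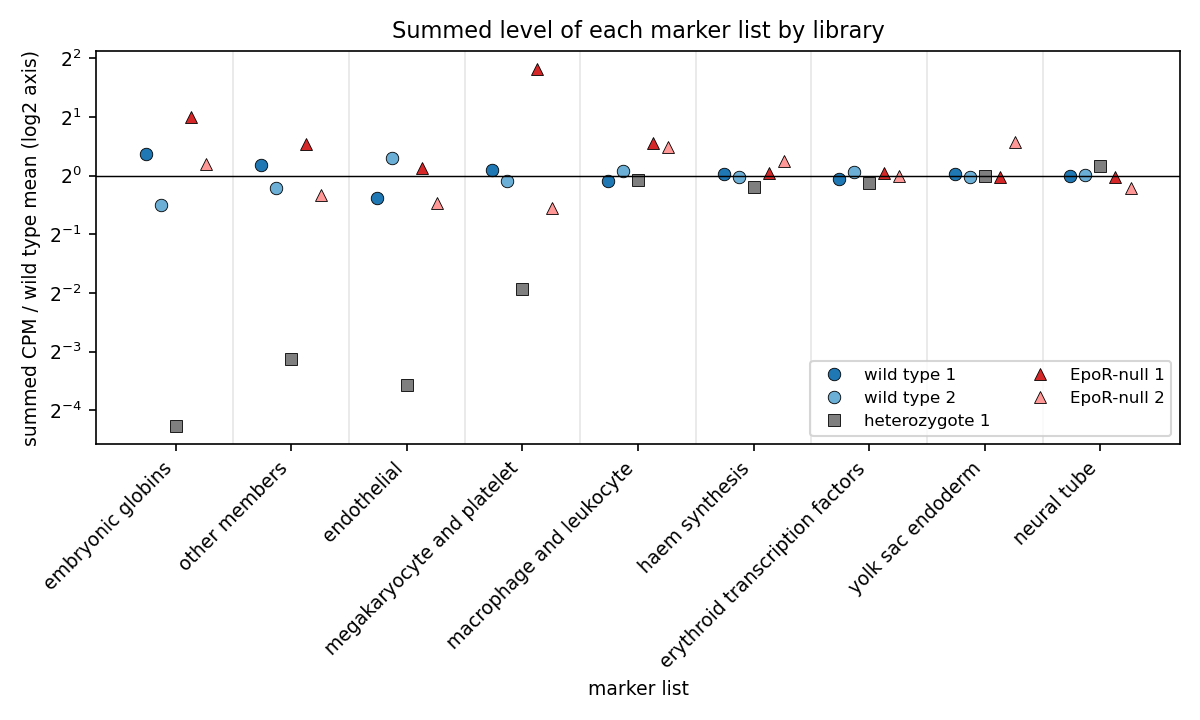
Summed CPM of each marker list in each library, divided by the mean of the 2 wild type samples, on a log2 axis. The heterozygote stands at 0.0516 of that mean for the embryonic globins, 0.114 for the other members, 0.0839 for endothelial genes and 0.263 for megakaryocyte genes, and between 0.875 and 1.12 for the other 5 lists drawn. The list of other globins, near 0 reads throughout, is not drawn. The red cell membrane and maturation list is not drawn either. It stood at 0.964 of the wild type mean in the heterozygote and at 0.819 and 0.634 in the EpoR-null samples.

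The other genes of the haemoglobin pathway were examined as lists. Of 10 other globin symbols, 7 were in the tables and 5 of these had 0 reads in every library, among them the adult genes Hba-a1, Hba-a2, Hbb-b1 and Hbb-b2. Reads that match near-identical copies are dropped by the counting, so the adult alpha and beta genes are uncertain. The highest of the rest, Hbq1b and Hbb-bh2, reached 0.372 and 0.248 CPM and had 0 reads in the heterozygote, which allows up to 0.130 CPM.

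All 11 further genes of haem synthesis were tested, and 0 passed both thresholds in either direction. Their summed level was 384 and 373 CPM in the wild type samples, 331 in the heterozygote, with 392 and 450 in the EpoR-null samples, so unlike Alas2 they were not low in the heterozygote. Urod, a decarboxylase of the pathway, stood at 45.6 and 45.4 CPM in the wild type samples, 42.6 in the heterozygote, with 58.4 and 69.4 in the EpoR-null samples. Urod had a log2 fold change of 0.52 (SE 0.16, p = 0.00110, FDR 0.0222, exact test of edgeR), which missed the p threshold, and 0.49 (SE 0.21, FDR 0.271) without the heterozygote.

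Of 19 tested genes of the red cell membrane and of maturation, 1 passed both thresholds, beside 4.77% of all tested genes. It was lower in the EpoR-null samples, as were 488 of all 606 genes called. This was Tfrc, the transferrin receptor through which cells take up iron, at 347 and 262 CPM in the wild type samples, 326 in the heterozygote, with 155 and 166 in the EpoR-null samples. Both EpoR-null samples lay below all 3 controls. Its log2 fold change was -0.95 (SE 0.18, FDR 3.66e-05, exact test of edgeR), and -0.92 (SE 0.21, FDR 0.00319) without the heterozygote. In the quasi-likelihood test no gene passed, and Tfrc did not either. The fit with length and GC offsets, which called 169 genes, is not given here for Tfrc. Tfrc is used by most dividing cells, and it stood in the heterozygote at 1.07 times the wild type mean, where the embryonic globins stood at 0.0516 times it.

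Epb4.1, a membrane skeleton protein that many tissues make, likewise stood at 358 CPM in the heterozygote beside 348 and 329 in the wild type samples, and at 326 and 228 in the EpoR-null samples. Of the 19, 9 genes stood at or below 0.25 times the wild type mean in the heterozygote. Of 12 tested transcription factors of red cells outside the 9 members, 0 passed, and the leading pair, Ldb1 and E2f2, ranged from 184 to 219 CPM and from 50.3 to 54.6 CPM over the 5 libraries. In the heterozygote 2 of the 12 stood at or below 0.25 times the wild type mean, and both were named after their values were seen. Lmo2, a partner of Tal1 that endothelium also expresses, stood at 12.6 and 19.3 CPM in the wild type samples, 0.518 in the heterozygote, with 20.7 and 12.9 in the EpoR-null samples. Nfe2, a factor of red cells and megakaryocytes, stood at 1.16 and 1.12, 0.259, and 2.47 and 1.90. Of the 10 neural tube genes, Msi1, an RNA-binding protein of neural progenitors, passed. Its log2 fold change was -0.51 (SE 0.14, FDR 0.00712) against the 3 controls and -0.51 (SE 0.17, FDR 0.0950) without the heterozygote, where it no longer passed.

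The composition of the globin reads differed between the libraries in a way that the total did not. This ratio was chosen after its values were seen, so it is given as a description. Of the reads on the beta-type genes, Hbb-y took 60.4% (95% Wilson interval 59.6 to 61.1) in wild type 1, 58.0% (57.2 to 58.8) in wild type 2 and 55.6% (51.7 to 59.3) in the heterozygote. In the EpoR-null samples it took 70.6% (70.0 to 71.2) and 63.7% (63.0 to 64.4). Both EpoR-null samples were above all 3 controls. In level, 43.3% of all tested genes had both EpoR-null samples on the same side of all 3 controls, so such an order was common. The gap between the EpoR-null samples, 70.6% against 63.7%, was wider than the gap between the lower of them and wild type 1.

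Expressed as a ratio of reads, Hbb-y to Hbb-bh1 was 1.52 and 1.38 in the wild type samples, 1.25 in the heterozygote, with 2.40 and 1.76 in the EpoR-null samples. Hba-x took 34.3% and 38.4% of the embryonic globin reads in the wild type samples, 33.8% in the heterozygote, with 32.1% and 36.1% in the EpoR-null samples, so the alpha-type share overlapped between genotypes.

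The libraries also differed by genotype in a trend of the counts with transcript length and GC content. At the length and GC content of the globins this trend amounted to -0.13 to -0.29 on the log2 scale in the controls and to 0.16 to 0.46 in the EpoR-null samples, relative to the same genes' average over the libraries. The transcripts of Hbb-y and Hbb-bh1 are 633 and 613 bases long, and taking the trend off left the Hbb-y share at 60.6%, 57.7%, 56.0%, 70.7% and 63.3% in the same order of libraries. With the same offsets in the fit, the log2 fold change against the wild type samples was 0.48 for Hbb-y, 0.10 for Hba-x and -0.072 for Hbb-bh1, in place of 0.90, 0.56 and 0.36, and 0 of the 9 members passed. The trend thus moved the level of all 3 but hardly their proportions. The ranking of the libraries by the Hbb-y share was the same with and without it. Whether this share differs by genotype was not tested.

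**Figure D4:**
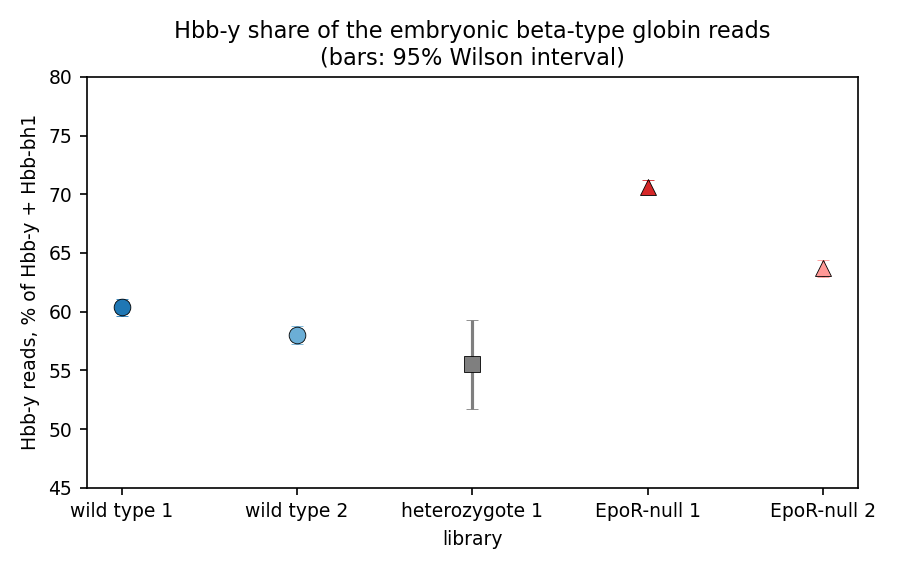
Hbb-y reads as a percentage of Hbb-y plus Hbb-bh1 reads in each library, with 95% Wilson intervals as bars, on an axis from 45% to 80%. The 3 controls lie between 55.6% and 60.4% and the EpoR-null samples at 70.6% and 63.7%.

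The other red cell genes were expressed per 1000 embryonic globin reads, also a measure chosen after values were seen. Alas2 stood at 11.8 and 12.9 per 1000 in the wild type samples, 14.1 in the heterozygote, with 7.5 and 8.14 in the EpoR-null samples. Gata1 stood at 1.62 and 1.69 in the wild type samples, 2.02 in the heterozygote, with 1.42 and 1.37 in the EpoR-null samples. These 2 of the 6 other members were below both wild type samples in both EpoR-null samples, where 31.9% of the 276 tested genes that were low in the heterozygote (the globins left out) were, so the members' share was close to the background. The measure leaned to lower values in the EpoR-null samples, with 0 of those 276 genes above both wild type samples. Of all 12703 tested genes, 4380 lay below both wild type samples in both EpoR-null samples and 17 above. Klf1, Tal1, Lyl1 and Hemgn overlapped. Each of them stood higher in the heterozygote than in both wild type samples, as with Tal1 at 29.2 beside 6.48 and 12.0.

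In the red cell membrane list, 8 of the 9 genes that were low in the heterozygote lay below both wild type samples in both EpoR-null samples. Of all 276 genes low in the heterozygote, 31.9% did so and 0 lay above. Slc4a1, the anion exchanger band 3, stood at 27.5 and 29.2 per 1000 globin reads in the wild type samples, 26.2 in the heterozygote, with 15.9 and 13.8 in the EpoR-null samples. Rhag, a carrier of the Rh complex, stood at 2.01 and 1.74, 5.04, and 0.332 and 0.407, from 52, 43, 5, 11 and 11 reads. Kel, the Kell antigen, was the gene that overlapped. These genes, and Spna1 and Epb4.2 below, were named after their values were seen.

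Transcripts of these genes are longer than those of the globins (1530 to 10394 bases against 613 to 801), so the length trend bears on each ratio. With the trend taken off, the background was 8.0% (22 of 275 genes with a length). Of the 6 other members, Alas2 stayed below, at 11.1 and 11.6 adjusted reads per 1000 in the wild type samples and 7.86 and 9.19 in the EpoR-null samples. Gata1 did so by a narrow margin, at 1.55 and 1.52 against 1.48 and 1.5, and Hemgn came to lie above, at 3.04 and 3.26 against 3.79 and 3.67.

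Of the 9 red cell membrane genes, 6 stayed below after the adjustment, and Spna1 and Epb4.2 joined Kel in overlapping. Of all 275 genes low in the heterozygote, 22 (8.0%) lay below after it and 3 above. Slc4a1 moved to 23.4 and 24.3 in the wild type samples and 17.0 and 19.8 in the EpoR-null samples, and Rhag to 1.78 and 1.64 against 0.349 and 0.522. With 2 samples on each side, and genes picked for being low in the heterozygote, these are values without a test.

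**Figure D5:**
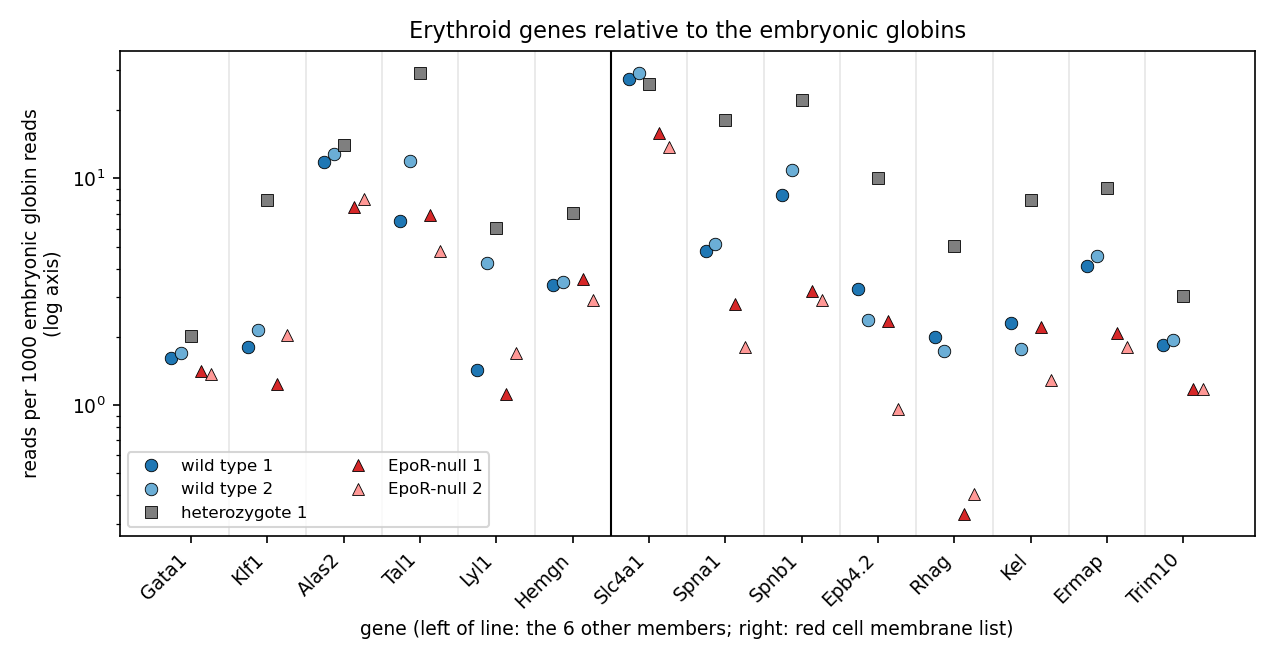
Reads of each gene per 1000 embryonic globin reads in each library, on a log axis, before the trend with length and GC content was taken off. The 6 other members stand left of the line and 8 of the red cell membrane genes that were low in the heterozygote right of it, and the EpoR-null triangles lie below both wild type circles for Alas2, Gata1 and 7 of the 8 membrane genes.

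The genes most like the embryonic globins were sought among 12700 tested genes by the root mean square difference of mean-centred log2 CPM over the 5 samples, for which the median gene stood at 1.87. The closest was Acp5, an acid phosphatase known from osteoclasts and macrophages, at 0.152. It stood at 3.22 and 1.90 CPM in the wild type samples, 0.0432 (1 read) in the heterozygote, with 5.75 and 2.81 in the EpoR-null samples. Wfdc1, a secreted protease inhibitor, followed at 0.265, and Alas2 came next at 0.377. The heterozygote dominates this measure, since the centred globin profile was -3.60 there and 1.02, 0.16, 1.59 and 0.83 in the other libraries.

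Capg (0.379), Esm1 (0.380), Slc4a1 (0.438), Rhoj (0.447), Gata1 (0.482) and Arhgdib (0.483) were also among the closest 10. Slc4a1 belongs to the red cell membrane list, whereas Esm1 and Rhoj are known from endothelium. Of the other members, Hemgn ranked 21, Tal1 172, Klf1 195 and Lyl1 204.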

How the data were processed

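The authors trimmed reads (Trimmomatic 0.32), aligned them (TopHat2 2.1.0, mm9, per the submitters' processing notes; the paper's methods name a human build), counted reads per gene with HTSeq 0.6.1 and deposited raw counts, 1 table per sample. HTSeq drops reads that fit several places or genes. Annotation and strand setting are not given in the sources used here. Of uniquely aligned reads, 8.12 to 11.0% fell on no feature and 1.85 to 2.31% were ambiguous. The fits ran in R 4.3.3 and edgeR 4.0.16 (TMM, estimateDisp, exactTest, Benjamini-Hochberg adjustment over all tested genes), EpoR-null against the 3 controls, as in the study, and without the heterozygote. CPM used TMM library sizes. Standard errors came from the negative binomial information. Lengths and positions were those of GENCODE on GRCm38, matched by symbol (99.0% of tested genes). The trend with length and GC content was a loess curve per sample, span 0.5. Alternatives included DESeq2 1.42.0. The fits were tested on simulated data. All 9 members are given. From other lists the text names the 2 genes with the most reads and any past both thresholds, and the 10 genes most like the globins, except 2 genes that are not reported here. Other genes were named after their values were seen, as the text says. The members and lists were chosen with earlier results of these data known.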

Additional observations from a re-analysis of the deposited data

How the results depend on the processing

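The number of members past both thresholds was 0 in every fit run, with a lowest FDR among members of 0.121. The number of all genes called was 606 and moved widely: 0 in the quasi-likelihood test (lowest FDR 0.0590, 3052 genes at an unadjusted p under 0.05), 291 in that test with the replicate block, 1028 in DESeq2, 169 with length and GC offsets, and from 115 (without wild type 1) to 2296 (without EpoR-null 1) with 1 library left out (294 without wild type 2, 253 without the heterozygote, 980 without EpoR-null 2). Alternatives added after the data were seen gave 351 with dispersions drawn to a common value, and, without the heterozygote, 58 with length and GC offsets, 270 in DESeq2, and 0 in the quasi-likelihood test, with the block (2387 at an unadjusted p under 0.05, 3 of them members, the embryonic globins, each higher in the EpoR-null samples, with FDR 0.121 to 0.210) or without it (1716). With 1 library left out, a lone sample of a group is assumed to vary like the rest. The replicate numbers are not stated to pair samples. The difference of wild type 1 and 2 and that of EpoR-null 1 and 2 correlated across genes (r = 0.427), and the block changed no call on a member. The ratio of summed globins was 2.26 to 2.31 under the other scalings, and 1.58 (without the heterozygote) to 4.14 (without wild type 1) with 1 library left out. The log2 fold change of Tal1 turned to -0.17 without EpoR-null 1 (up to 1.18 without EpoR-null 2). Without the heterozygote, that of Lyl1 turned to -0.22 in the exact test (up to 0.96 without wild type 2), -0.19 in the quasi-likelihood test with the block and -0.22 without it, and -0.22 in DESeq2. With length and GC offsets and without the heterozygote, it was -0.48 for Lyl1, -0.22 for Alas2, -0.072 for Hbb-bh1 and -0.012 for Klf1. The causes of these moves were not tested. The low counts of Gata1, Klf1 and Lyl1 (at most 105 reads) limit their precision.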
